A study of Mus musculus with 111 samples.

Results

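Antibody and antigen-presentation transcripts in virus-injected hypothalamus were followed through 9 of the 54087 gene rows that each library holds. They are 4 immunoglobulin rows (Ighg2b, Ighg2c, Igkc and Ighm), 3 rows of the major histocompatibility complex (MHC) class I pathway (B2m, H2-K1 and H2-D1) and 2 rows of the class II pathway (Cd74 and H2-Aa). The rows were selected from the count tables of these same libraries, as possible signs of an immune response or of blood in the injected tissue and with earlier results known, so every test on them below describes these libraries and is not independent evidence. RNA was sequenced from the tuberomammillary nucleus (TMN), the histamine-producing cell group of the posterior hypothalamus, of adult male and female C57BL/6 mice (C57BL/6J in the study's methods). The mice had received an adeno-associated virus (AAV) in the TMN that expressed GFP alone, histone H3.3, or H3.3 with glutamine 5 replaced by alanine (Q5A). The H3.3 and Q5A vectors also carried a GFP cassette, both histones were Flag-HA tagged, and GFP-positive tissue was cut out weeks after surgery, so no uninjected tissue entered the comparisons and cells other than neurons were present in the bulk samples. GFP and H3.3 served together as the controls.

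After 1 library deposited under 2 replicate numbers had been merged, 110 libraries remained, 32 of GFP, 39 of H3.3 and 39 of Q5A. They covered 6 zeitgeber times (ZT0, ZT4, ZT8, ZT12, ZT16 and ZT20, with lights on at ZT0) and 3 cohorts, a label that is unevenly spread over the viruses (28 GFP, 24 H3.3 and 26 Q5A libraries in cohort 1, then 4, 10 and 10 in cohort 2, and 0, 5 and 3 in cohort 3). The 18 combinations of virus and ZT held 4 to 8 libraries each. Gene counts summed to between 673306 and 3375352 per library. These totals are small because the gene rows took only 3.49% to 5.63% of uniquely placed reads, and most members rest on a few reads per library. TMN identity was checked on 6 histaminergic genes: their summed level ranged from 44.5 to 341 normalised counts, and Slc18a2, the vesicular monoamine transporter, led them with a median of 85.7 but shares exon bases with Gm29261 on the opposite strand, and Hdc, which makes histamine, had a read in 99 libraries (median 3.96).

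Immunoglobulins are made by B cells and, in bulk, by plasma cells. Ighm encodes the constant part of the IgM heavy chain, Ighg2b and Ighg2c those of the IgG2b and IgG2c heavy chains, and Igkc that of the kappa light chain shared by the classes. MHC class I molecules present peptides from inside nearly every nucleated cell: H2-K1 and H2-D1 are their heavy chains and B2m, beta-2 microglobulin, is the light chain that both need. MHC class II molecules present peptides taken up from outside, on B cells, dendritic cells, macrophages and activated microglia. H2-Aa is a class II alpha chain, and Cd74 is the invariant chain that guards the peptide groove. In brain most of these transcripts are normally scarce, and interferons raise class I and class II genes.

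Because the 2 IgG rows come from similar genes, a stretch of each is shown to make clear what lets a read be assigned to one of them. The first coding exons are 87.6% identical (255 of 291 aligned bases), and over whole exon sequences 2.66% of the 50-base windows of Ighg2b and 5.49% of those of Ighg2c occur in the other gene. The 60 bases below start at base 204 of that exon (GRCm38), and capitals mark the 13 bases that differ. This window was picked because it holds the most differences in the exon, so it is less alike than the exon as a whole.
Ighg2b, chr12:113307671-113307730, minus strand: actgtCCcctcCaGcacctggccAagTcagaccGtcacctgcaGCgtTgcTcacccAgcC
Ighg2c, chr12:113288670-113288729, minus strand: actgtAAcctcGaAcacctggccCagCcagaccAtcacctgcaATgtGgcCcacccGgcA
Reads that fall in identical windows can be dropped from both of these rows, so the separate values of the rows carry that uncertainty. The same holds for H2-K1 and H2-D1, which share 5.43% and 4.79% of their windows.

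The class I and class II members varied together across libraries, so the bases upstream of the start sites of B2m, H2-K1 and H2-Aa are shown, with a shorter stretch for H2-D1, while Cd74 was not searched (RefSeq, GRCm38.p6, 249 bases before each annotated start, coding strand). Capitals mark 3 short motifs chosen after these sequences were seen and searched on both strands. They are AANTGAAA, the core of an interferon-response element, GGGATTCCC, a kappa-B-type site, and ATTGG, the Y-box or CCAAT sequence.
B2m, chr2:122147437-122147685, plus strand: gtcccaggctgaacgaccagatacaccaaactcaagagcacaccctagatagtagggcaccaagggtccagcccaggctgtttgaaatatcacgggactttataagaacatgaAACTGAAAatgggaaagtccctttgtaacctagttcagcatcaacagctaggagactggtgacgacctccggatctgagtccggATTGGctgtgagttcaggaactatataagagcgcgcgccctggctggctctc
H2-K1, chr17:34000349-34000597, minus strand: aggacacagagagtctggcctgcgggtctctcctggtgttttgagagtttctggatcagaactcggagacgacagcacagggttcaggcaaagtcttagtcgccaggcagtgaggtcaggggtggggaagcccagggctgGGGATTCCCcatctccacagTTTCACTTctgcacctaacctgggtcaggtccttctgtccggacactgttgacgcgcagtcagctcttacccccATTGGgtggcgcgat
H2-Aa, chr17:34287825-34288073, minus strand: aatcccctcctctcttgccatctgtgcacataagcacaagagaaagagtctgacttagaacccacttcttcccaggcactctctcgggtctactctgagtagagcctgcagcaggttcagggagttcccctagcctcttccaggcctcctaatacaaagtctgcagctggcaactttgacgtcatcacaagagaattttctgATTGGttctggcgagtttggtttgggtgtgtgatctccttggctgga
Of 32851 mouse promoters of this length, 5.69% hold AANTGAAA, 0.298% GGGATTCCC and 33.8% ATTGG. B2m holds AANTGAAA 136 bases before its start and ATTGG 52 bases before it. H2-K1 holds GGGATTCCC at 109 bases, AANTGAAA on the reverse strand at 89 bases and ATTGG at 15 bases. H2-Aa holds ATTGG at 47 bases, and no match to the other letters was found in that window. For H2-D1, 30 bases are set against the matching stretch of H2-K1. The pair of motifs stands in both with the same spacing, and the stretches differ at 1 base. In H2-D1, GGGATTCCC lies 169 bases and AANTGAAA, on the reverse strand, 149 bases before the RefSeq start. The gene annotation used for the coordinates below starts H2-D1 further upstream, at chr17:35262730. By that annotation the H2-D1 stretch lies inside the gene.
H2-K1, chr17:34000429-34000458, minus strand: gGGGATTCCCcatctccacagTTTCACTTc
H2-D1, chr17:35262923-35262952, plus strand: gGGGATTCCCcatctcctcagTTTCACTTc
A match is a description of the letters and not a measured binding site.

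In GRCm38 the 3 heavy-chain rows lie on the minus strand of chromosome 12, Ighg2c at chr12:113285325-113288932, Ighg2b at chr12:113302965-113307933 and Ighm at chr12:113418558-113422730. Igkc lies at chr6:70726435-70726966 on the plus strand, where the annotation places Gm30211 over it on the same strand. H2-K1 (chr17:33996017-34000347, minus), H2-Aa (chr17:34282744-34287823, minus) and H2-D1 (chr17:35262730-35267499, plus) belong to the MHC locus of chromosome 17, while B2m is at chr2:122147686-122153083 on the plus strand and Cd74 is on chromosome 18. Counting used strand, the library kit marks strand, and few of the uniquely placed reads fell on gene rows. Whether the counted strand was the transcribed one was not tested, and reads of the other strand were not analysed here, so every level below is of the reads counted and may be a minority of those a gene gave. B2m was the 1 member with a gene on the opposite strand (Patl2), and 0 of the 9 members share exon bases with a gene of the opposite strand.

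Immunoglobulin reads were concentrated in a few libraries. Levels are given as normalised counts, that is, counts divided by each library's median-of-ratios size factor. The summed level of the 4 immunoglobulin rows ranged from 0 to 1185 normalised counts with a median of 11.9, and 104 of 110 libraries held at least 1 read. The 2 highest libraries held 34.2% of the level summed over all libraries, and the 9 highest held 67.9%. In reads these shares were 28.1% (95% Wilson interval 27.0% to 29.1%) and 65.2% (64.1% to 66.3%), intervals that cover counting error only. Ighm was the most widely detected row, with a read in 99 libraries, a median of 3.73 and a highest value of 194. Ighg2b (71 libraries, median 1.42, highest 314), Ighg2c (73 libraries, median 2.57, highest 714) and Igkc (80 libraries, median 3.01, highest 373) were at or near 0 in most libraries and very high in a few.

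The highest library was replicate 4 of GFP at ZT4 in cohort 1, with 51 Ighg2b, 803 Ighg2c, 390 Igkc and 88 Ighm reads among 1588024. The other 4 GFP ZT4 libraries held 0, 3.35, 3.75 and 7.50 normalised counts in sum, against its 1185. Next came replicate 2 of H3.3 at ZT0 in cohort 1, with 198, 165, 235 and 122 reads among 875500 and a summed level of 1142. The other 3 H3.3 ZT0 libraries of cohort 1 stood at 1.05, 2.89 and 13.2, and that of cohort 2 at 16.7. Replicate 1 of H3.3 at ZT16 in cohort 2 followed with 548, and replicate 1 of Q5A at ZT16 in cohort 1 with 409. The remaining 5 of the 9 highest lay between 197 and 316, and the library ranked 10 stood at 137. These 9 libraries comprised 3 of H3.3, 4 of GFP and 2 of Q5A, from cohorts 1 and 2, and all but 2 were collected at ZT16 or ZT20.

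**Figure D1:**
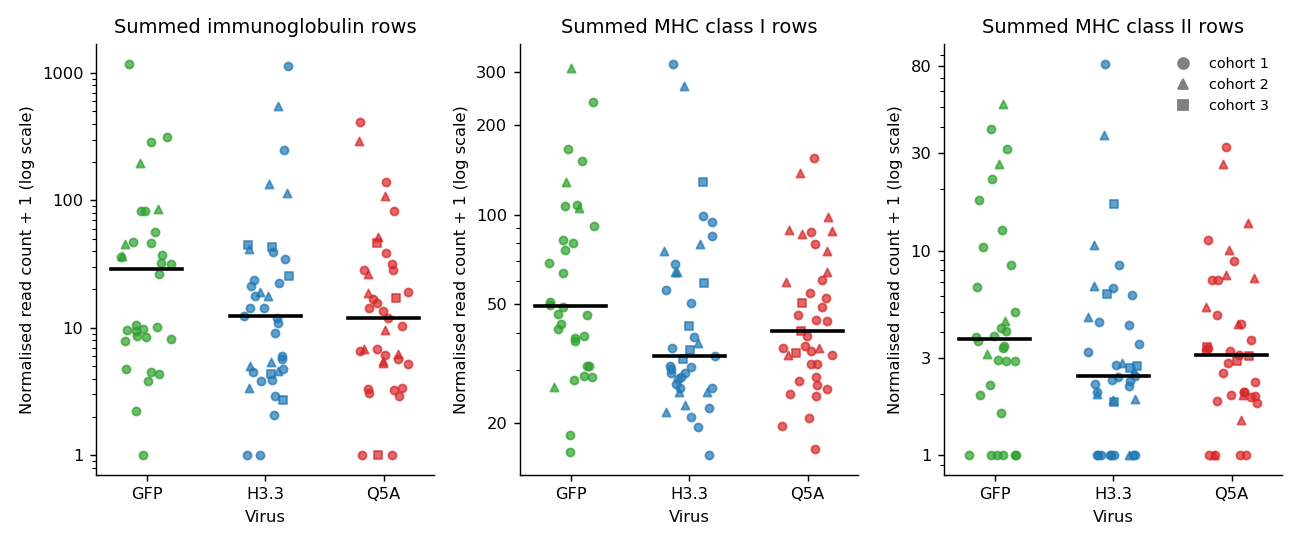
Summed normalised counts of the 4 immunoglobulin, 3 MHC class I and 2 MHC class II rows (log axis, value + 1) in each of the 110 libraries, by virus (colour), with marker shapes for the cohorts and bars at the medians. A few libraries of every virus stand far above their median in the immunoglobulin panel (highest GFP 1185, H3.3 1142, Q5A 409), while the MHC class I values run from 14.6 to 320.

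MHC class I rows were present throughout. H2-D1 was detected in all 110 libraries (2.56 to 151, median 20.6), B2m in all 110 (0.78 to 83.2, median 10.2) and H2-K1 in 109 (0 to 117, median 11.7). Their sum ranged from 14.6 to 320 with a median of 39.9, and the 9 highest libraries held 28.5% of it. Class II was sparser and more uneven. Cd74 had a read in 86 libraries (0 to 69.8, median 1.90) and H2-Aa in 28 (0 to 11.1, median 0, at most 28 reads), and the 9 highest libraries held 54.0% of their sum.

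**Figure D2:**
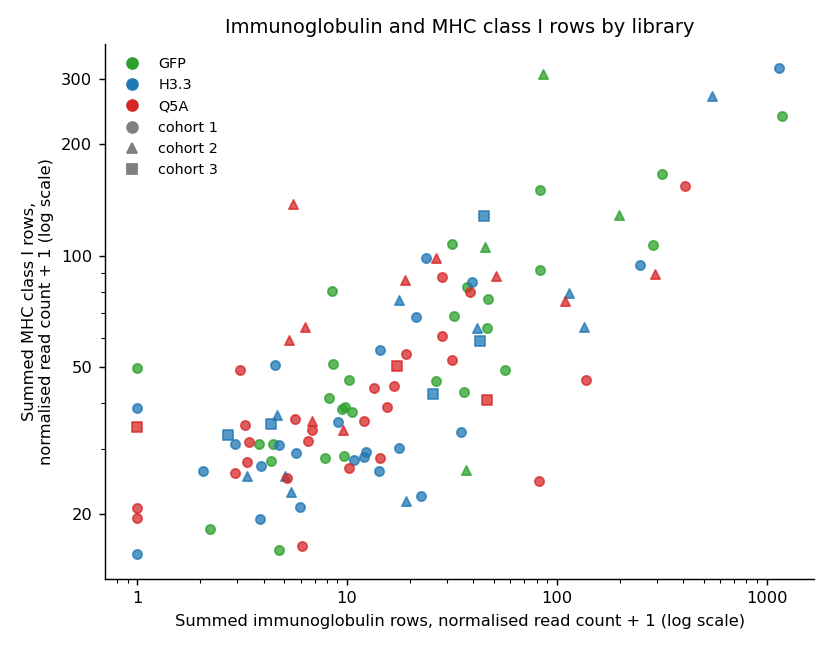
Summed MHC class I level against summed immunoglobulin level (normalised counts + 1, log axes), 1 point per library, with colours for the viruses and shapes for the cohorts. Libraries with the most immunoglobulin also had high MHC class I, with r = 0.744 over 110 libraries, whereas GFP ZT12 cohort 2 replicate 1 had an MHC class I level of 309 at an immunoglobulin level of 84.6.

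Libraries high in immunoglobulin were mostly high in MHC as well. The 2 libraries of highest immunoglobulin had MHC class I sums of 238 and 320 and class II sums of 38.3 and 80.9, against medians of 39.9 and 1.99. Of the 9 highest libraries by immunoglobulin, 6 were among the 9 highest by class I and 7 among the 9 highest by class II. Over the 110 libraries the log2 sums of immunoglobulin and class I gave r = 0.744 (Spearman 0.688; r = 0.702 without the 2 libraries farthest from the median of the immunoglobulin sum), with 0.784 within cohort 1 (78 libraries) and 0.628 within cohort 2 (24 libraries). Immunoglobulin and class II gave r = 0.738, and class I and class II 0.830. Between single rows, r ran from 0.677 to 0.855 in the 6 immunoglobulin pairs, from 0.609 to 0.794 in the 10 MHC pairs and from 0.503 to 0.728 in the 20 mixed pairs. The values of a pair come from the same library and share its depth and size factor. They are given as a description, and the correlation of the immunoglobulin sum with total count was 0.175.

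Some libraries broke the pattern in either direction. Replicate 1 of GFP at ZT12 in cohort 2 had the second highest class I sum (309, with 232 B2m, 209 H2-K1 and 420 H2-D1 reads) and a class II sum of 51.3, but an immunoglobulin sum of 84.6, with 134 of its 236 immunoglobulin reads on Ighm. Replicate 2 of Q5A at ZT0 in cohort 2 had class I and class II sums of 137 and 25.6 with an immunoglobulin sum of 4.52. In the opposite direction, replicate 4 of Q5A at ZT12 in cohort 1 held 137 of immunoglobulin at a class I sum of 45.1.

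The 2 IgG isotypes were unevenly mixed between libraries. In the 23 libraries with at least 20 reads on Ighg2b and Ighg2c together, Ighg2c took between 9.68% and 100% of them. Its 95% Wilson interval lay above 50% in 13 libraries, below 50% in 4 and held 50% in 6. In the GFP ZT4 library it took 94.0% (92.2% to 95.4%, 803 of 854 reads) and in replicate 4 of Q5A at ZT12 in cohort 1 100% (95.3% to 100%, 77 of 77). Ighg2b prevailed in replicate 2 of GFP at ZT20 in cohort 1, where Ighg2c took 11.97% (7.26% to 19.1%, 14 of 117), and in replicate 2 of Q5A at ZT16 in cohort 2, where it took 27.3% (21.7% to 33.7%, 57 of 209). The H3.3 ZT0 library lay between, at 45.5% (40.4% to 50.6%, 165 of 363). Both isotypes led in some library of GFP and of Q5A. In H3.3 the shares ran from 45.5% to 81.3% over 5 libraries.

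**Figure D3:**
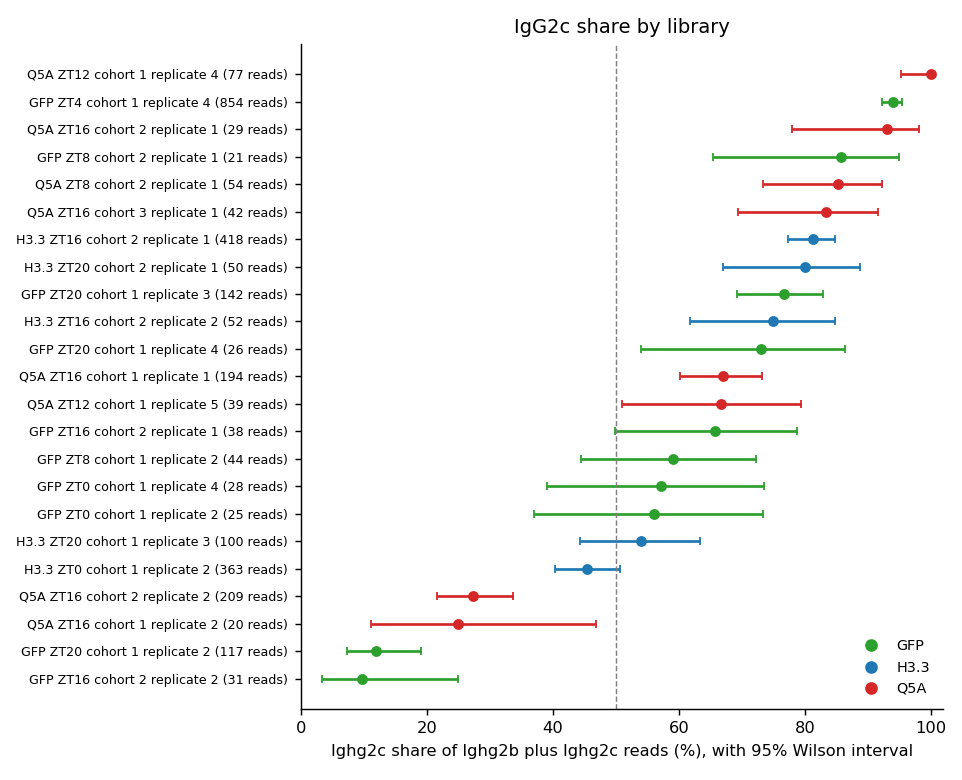
Share of Ighg2c among the reads on Ighg2b and Ighg2c, in percent with 95% Wilson intervals, for the 23 libraries with at least 20 such reads, ordered by that share and coloured by virus. The shares span 9.68% to 100%, and 13 intervals lie above and 4 below the line at 50%.

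Variable-segment rows, which encode the antigen-binding part of the chains, showed the same unevenness. Of 183 heavy-chain variable (Ighv) rows, 41 had a read, 377 reads in all, and of 162 kappa (Igkv) rows 61 had a read, 911 in all. In the GFP ZT4 library, Igkv14-100 took 88 of 153 Igkv reads (57.5%, 95% Wilson interval 49.6% to 65.1%) and Ighv1-52 took 35 of 41 Ighv reads (85.4%, 71.6% to 93.1%). In replicate 1 of H3.3 at ZT16 in cohort 2, Igkv6-32 took 55 of 82 (67.1%, 56.3% to 76.3%). Such leading rows were not particular to 1 library. Igkv6-32 was also the highest Igkv row in others, among them replicate 3 of GFP at ZT20 (21 of 33 reads) and replicate 4 of GFP at ZT12 (16 of 22), both in cohort 1. Ighv1-52 was also the highest Ighv row in the H3.3 ZT0 library (14 of 42). The H3.3 ZT0 library instead spread 86 Igkv reads over 22 rows, with Igkv3-7 highest at 14 (16.3%). Related variable segments are near-identical, so a read can be assigned to a neighbour of its true segment.

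The first comparison between viruses asked whether the control vectors differed, with adjusted p from edgeR's quasi-likelihood test over 13891 genes and ZT in the model. H2-Aa was too sparse to be tested, which left 8 members. No member was called between H3.3 and GFP at an adjusted p under 0.01, where 0.0% of all genes were called (0 genes, also 0 by DESeq2, with 527 at an unadjusted p under 0.05). Medians of the immunoglobulin sum were 28.0 in GFP (0 to 1185) and 11.4 in H3.3 (0 to 1142), and of the class I sum 48.5 (15.0 to 309) and 32.5 (14.6 to 320), so the groups overlapped over nearly their whole range. On the log2 scale H3.3 minus GFP was -0.50 ± 0.22 (SE) for H2-D1, -0.43 ± 0.22 for H2-K1, -0.38 ± 0.23 for B2m and -0.60 ± 0.30 for Cd74, with an adjusted p of 1 for each. Before adjustment the edgeR values were 0.0242 for H2-D1 and 0.0494 for Cd74. The immunoglobulin differences lay between -0.68 ± 0.49 (Igkc) and -0.08 ± 0.31 (Ighg2b), and all 4 turned positive without the GFP ZT4 library, at 0.23 for Ighg2b, 0.56 for Ighg2c, 0.14 for Igkc and 0.081 for Ighm. Within cohort 1 the value was -0.51 for H2-D1, -0.42 for Cd74, -0.98 for Ighg2c and 0.18 for Ighg2b. Cohorts 2 and 3 held 4 and 0 GFP libraries, too few for values of their own. In bulk tissue, fewer cells of a type and less RNA per cell cannot be told apart.

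The second comparison set Q5A against the mean of both controls. No member was called, with 5 of 13891 genes (0.036%) past an adjusted p of 0.01. The 8 differences were negative, at -0.79 ± 0.38 (SE) for Ighg2b, -0.89 ± 0.48 for Ighg2c, -0.79 ± 0.44 for Igkc, -0.63 ± 0.31 for Ighm, -0.46 ± 0.19 for H2-K1, -0.30 ± 0.19 for H2-D1, -0.16 ± 0.20 for B2m and -0.44 ± 0.26 for Cd74. The adjusted p was 0.890 for B2m and 0.843 for each of the others, and the median over all genes tested was 0.00. The Q5A immunoglobulin sum had a median of 10.98 (0 to 409), close to that of H3.3, and its class I sum had a median of 39.7 (15.4 to 154), between those of the controls. Within cohort 1 the differences were -0.91 for Ighg2b, -0.44 for H2-K1, -0.26 for H2-D1 and -0.15 for B2m, with adjusted p values of 0.508 to 0.896 over the 8 members. The highest single library was H3.3 ZT0 cohort 1 replicate 2 for Ighg2b, Igkc, Ighm, H2-K1, Cd74 and H2-Aa. It was GFP ZT12 cohort 2 replicate 1 for B2m and H2-D1, and GFP ZT4 cohort 1 replicate 4 for Ighg2c. These few libraries set the highest value of all 9 members, so the members are not separate observations here. GFP and H3.3 together held 71 libraries against 39 of Q5A.

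**Figure D4:**
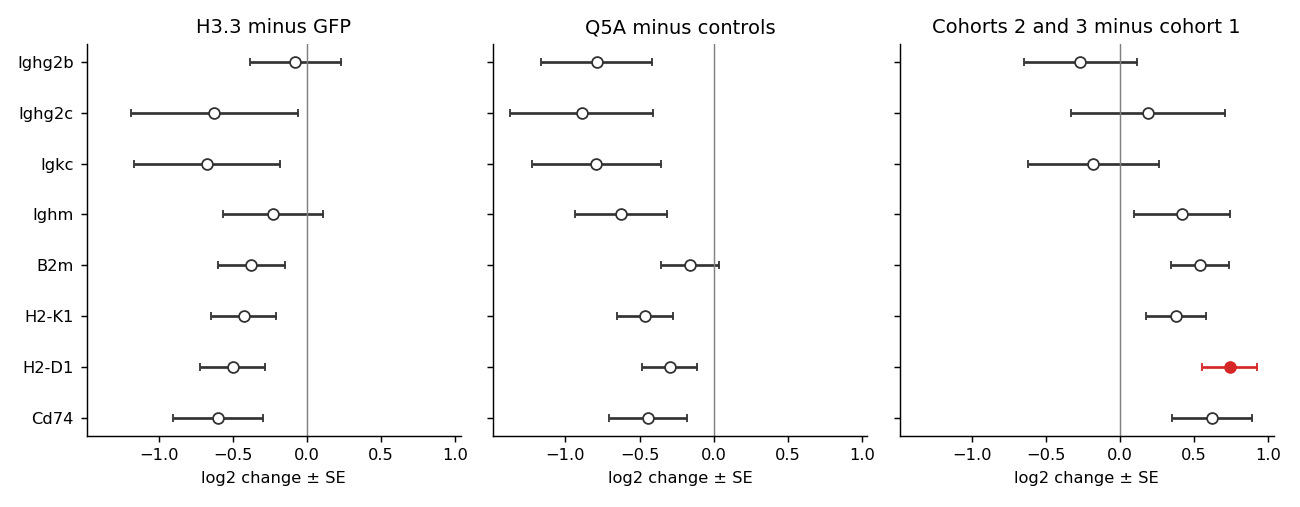
Log2 differences with standard errors (bars) of the 8 tested members in the comparisons H3.3 minus GFP, Q5A minus controls, and cohorts 2 and 3 minus cohort 1. H2-D1 between cohorts (0.74 ± 0.18) is the 1 value past the threshold, and in Q5A minus controls the 8 values lie from -0.89 to -0.16.

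Cohorts differed in 1 member. H2-D1 was higher in cohorts 2 and 3 than in cohort 1, with a log2 difference of 0.74 ± 0.18 (SE) and an adjusted p of 0.00323, with virus and ZT in the model. Of all genes, 5.13% were called between cohorts, and 1.32% were higher in cohorts 2 and 3. H2-D1 levels were 2.56 to 140 with a median of 17.9 in cohort 1, 9.66 to 151 with a median of 31.0 in cohort 2, and 15.8 to 67.4 with a median of 21.1 in cohort 3, so the ranges overlapped. The cohort 2 median was the higher within each virus, at 61.6 against 23.7 in GFP, 20.9 against 15.2 in H3.3 and 36.9 against 17.9 in Q5A. The GFP median of cohort 2 rests on only 4 libraries, collected at ZT8, ZT12 or ZT16, with values from 13.7 to 151. The call was lost without 1 library: leaving out the GFP ZT12 library of cohort 2 gave a difference of 0.56 with an adjusted p of 0.0377. B2m (0.54 ± 0.20, adjusted p = 0.0579), Cd74 (0.62 ± 0.27, 0.126), H2-K1 (0.38, 0.226) and Ighm (0.42) were above 0 but not called. The other immunoglobulin rows gave -0.27 (Ighg2b), 0.19 (Ighg2c) and -0.18 (Igkc). The immunoglobulin sum had medians of 9.71, 21.8 and 20.5 in cohorts 1, 2 and 3, and the class I sum 37.2, 68.9 and 40.4. What else differed between cohorts (Tubb3 of the neuron list, 0.36 higher, and Slc18a2 of the histaminergic list, 0.59 lower on the log2 scale, were called) and its part in the H2-D1 difference was not tested.

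**Figure D5:**
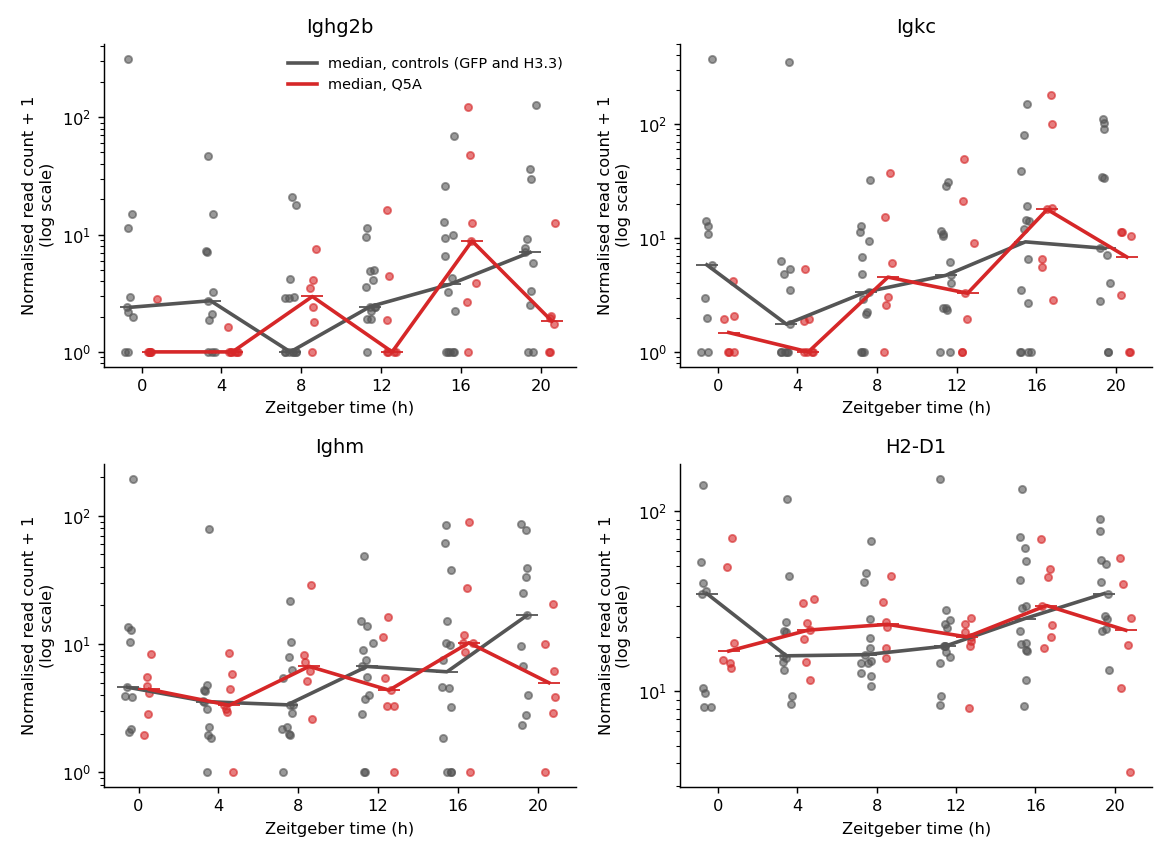
Normalised counts + 1 (log axis) of Ighg2b, Igkc, Ighm and H2-D1 by ZT in hours, 1 point per library, for pooled controls and Q5A, with lines through the medians. Q5A medians are highest at ZT16 in the 4 panels (7.82, 16.8, 9.23 and 28.99 normalised counts), control medians of Ighg2b and Ighm at ZT20 (6.04 and 15.7), and single control libraries at ZT0 and ZT4 lie far above the control medians.

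Over the day, Ighg2b and Ighm changed with ZT over all viruses, in a 24 h cosine model with adjusted p under 0.05, which 9.12% of all genes passed. The fitted peak-to-trough change was 2.39 log2 units for Ighg2b with a peak at ZT20.1 (adjusted p = 0.00313) and 1.65 for Ighm with a peak at ZT19.2 (adjusted p = 0.0127). Igkc had 1.78 (adjusted p = 0.0830), Ighg2c 0.98 (0.557), H2-D1 0.69 (0.128), B2m 0.70 (0.136), H2-K1 0.67 (0.146) and Cd74 0.89 (0.190), none of them called. In cohort 1 alone the adjusted p was 0.0126 for Ighg2b, 0.0073 for Ighm and 0.0353 for B2m. The rank-based JTK_CYCLE test called no member in controls or in Q5A. Without the 2 libraries of highest immunoglobulin, which were collected at ZT4 and ZT0, 7 members were called, with adjusted p from 3.0e-06 (Igkc) to 0.0465 (H2-D1), in a fit that called 1285 genes against 1267 with them. In the main test for change over ZT, genes of several cell lists were called too: Hbb-bs, a beta-globin of red blood cells (1.36 log2 units, adjusted p = 0.000519), Tmem119 of microglia (0.64, 0.0488), Cldn5 of endothelium (0.65, 0.0496), Col1a2 of fibroblasts (0.79, 0.0327), Slc18a2 of histaminergic neurons (0.73, 0.00165) and Snap25 of neurons (0.52, 0.00689). Their part in the members' change was not tested.

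In controls the immunoglobulin sum had medians of 16.7, 9.85, 4.97, 21.5, 22.01 and 31.4 at ZT0, 4, 8, 12, 16 and 20, and the class I sum 62.8, 29.2, 30.0, 40.2, 48.3 and 78.5. In Q5A the immunoglobulin medians were 4.58, 4.29, 14.2, 13.3, 45.5 and 17.0, and those of class I 32.9, 34.6, 43.1, 33.9, 59.5 and 42.0. The ranges within each ZT were far wider than the steps between medians: at ZT4 the 11 control libraries ran from 0 to 1185 and at ZT20 from 3.54 to 316, while the 7 Q5A libraries at ZT16 ran from 10.98 to 409.

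Ighg2b, Ighg2c and Igkc were 3 of the 17 genes (0.122% of those tested) called for a 24 h rhythm that differed between Q5A and controls, with adjusted p of 0.00511, 0.0337 and 0.0221. Since the rows were proposed with these results known, nothing is read from that count. Hdc, the histamine-making enzyme of the dissected neurons, was also among the 17 (adjusted p = 0.0267), and its part in the result was not tested. Fitted alone, controls peaked at ZT22.2 for Igkc (2.61 log2 units), ZT23.3 for Ighg2c (2.51, not called) and ZT22.1 for Ighg2b (2.88), and Q5A peaked at ZT14.4 for Igkc (4.02) and ZT13.8 for Ighg2c (3.47), while Ighg2b was too sparse to be tested in Q5A alone. In Q5A, Ighg2b had a read in 1 of 6 libraries at ZT0, 1 of 7 at ZT4 and 6 of 7 at ZT16, where it ran from 0 to 121 with a median of 7.82. At ZT0 controls had a read in 7 of 9 libraries, from 0 to 314 with a median of 1.401, so the ranges overlapped. Ighm (adjusted p = 0.294), H2-K1 (0.634), B2m (0.784), Cd74 (0.929) and H2-D1 (0.932) were not called.

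The calls of Ighg2c and Igkc were lost when any of the single libraries named below was left out, that of Ighg2b only without the H3.3 ZT0 library. Over the 19 settings run, Ighg2b was called in 16, Igkc in 10 and Ighg2c in 8. Without the H3.3 ZT0 library, the adjusted p rose to 0.0568 for Ighg2b, 0.0946 for Ighg2c and 0.0853 for Igkc, and without it and the GFP ZT4 library to 0.208, 0.321 and 0.321. Leaving out the GFP ZT4 library alone gave 0.0110, 0.117 and 0.0820, and leaving out the Q5A ZT16 library of cohort 1 gave 0.0175, 0.114 and 0.0915. DESeq2 gave 0.0251, 0.161 and 0.0452. In cohort 1 alone, where the test of the difference in 24 h rhythm, Q5A against controls, called 778 genes in place of 17, all 3 had an adjusted p of 0.00334 or lower.

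Genes whose levels followed the members most closely included other antibody genes for the immunoglobulin sum and complement genes for the MHC class I sum, beside rows with clone names. Over 110 libraries and 13883 rows, r with the immunoglobulin sum was highest for Igha, the IgA heavy chain (0.807), Igkv6-32 (0.794), the unannotated row RP23-247I11.8 (0.789), the unannotated row RP23-116M12.7 (0.732) and Jchain, which joins IgM and IgA units (0.720). The class I sum was followed by a row that carries a clone name and is absent from the annotation used (0.770), C1qa (0.735), C4b (0.719), RP23-123G8.16 (0.715) and C1qc (0.714), where C1qa and C1qc encode parts of complement C1q and C4b encodes complement C4. Closest to the class II sum were the same clone-named row (0.754), Igha (0.740), the class II beta chain H2-Ab1 (0.737), RP23-123G8.16 (0.736) and C1qc (0.733).

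Other genes of these pathways were followed in lists. Of 9 further immunoglobulin constant and joining genes, 2 were abundant enough to test (Igha and Jchain, both with a median of 0 and at most 96 and 28 reads), and neither was called in any comparison. Their median fitted change over ZT was 1.11 log2 units, against 0.26 over all genes. This size is never negative and scatter at low counts adds to it, so no stronger daily change is read from these values. The 21 other class I and peptide-loading genes gave 15 tested genes. Tapbp, which loads peptide onto class I (median 157, adjusted p = 0.0227), and H2-T22 (2.8e-06) changed with ZT, Psme1, a proteasome activator subunit, was 0.34 higher in cohorts 2 and 3 (adjusted p = 0.000183), and H2-T24 (median 109) was not called. Of 11 other class II genes 5 were tested: Ciita, the class II transactivator (median 45.6), changed with ZT (adjusted p = 0.00608), and Cd80 (median 21.8) was not called. Tapbp, H2-T22, Psme1 and Ciita each share exon bases with a gene on the opposite strand. Of 24 interferon-induced genes 6 were tested and 0 called in any of the 5 comparisons. The 2 most abundant, Irf1 and Isg15 (medians 22.7 and 13.3), had r = -0.034 and -0.21 with the immunoglobulin sum, while the mean over the whole list had r = 0.690. Of 8 immunoglobulin receptor genes none passed the filter, with Fcgr1 and Fcgrt highest at medians of 2.40 and 2.21. No gene of these lists was called between H3.3 and GFP or between Q5A and controls.

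Markers of cells that could carry these transcripts were set beside them. Most genes of the B cell and plasma cell list had few reads: Ms4a1 reached at most 1 read in any library, Cd79b and Mzb1 at most 2 and Cd79a at most 6. Irf4 had a read in 72 libraries (at most 7), Sdc1 in 44 (at most 6), Tnfrsf17 in 36 (at most 3) and Prdm1 in 32 (at most 3). With so few of all reads on gene rows, counts this low do not show that such cells were absent. The list's summed level was similar in each virus, at 9.86 to 38.2 in GFP, 16.02 to 42.9 in H3.3 and 11.9 to 45.3 in Q5A, and came mostly from Xbp1 (median 16.2) and Pax5 (3.55), of which Xbp1 is used by many cells and Pax5 shares exon bases with opposite-strand genes. The T cell and natural killer cell list stood at 0.84 to 18.1, 0 to 21.2 and 0.97 to 28.3, led by Cd52 (median 3.29) and Cd4 (0.82), with Cd3d at most at 2 reads, Cd3g at 3, Cd8a at 2 and Gzma at 0. Cd3e, which shares exon bases with an opposite-strand gene, had a read in 43 libraries and at most 18, in replicate 1 of Q5A at ZT16 in cohort 1. Library by library, the mean log level of the B cell list had r = 0.282 with the immunoglobulin sum and that of the T cell list 0.382.

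Red blood cell and glial lists were set beside the members in the same way. The red blood cell list had r = 0.276 with the immunoglobulin sum (0.225 within cohort 1, 0.568 within cohort 2) and 0.160 with class I (0.033 and 0.528). It had 2 of 7 genes tested, Alas2 (median 12.6, sharing exon bases with genes of the opposite strand) and Hbb-bs (median 4.56). Hbb-bs alone had r = 0.359 with immunoglobulin (0.384 within cohort 1, 0.569 within cohort 2) and 0.285 with class I (0.206 and 0.611). Alas2 had -0.061 and -0.191 with the 2 sums over all libraries. The list summed to 11.5 to 120 in GFP, 10.4 to 47.1 in H3.3 and 10.3 to 84.0 in Q5A. The microglia list (led by Csf1r, median 254) had r = 0.598 with immunoglobulin (0.686 within cohort 1, 0.332 within cohort 2) and 0.754 with class I (0.775 and 0.755), and the reactive astrocyte list (led by Gfap, median 37.9, and Vim, 10.9) 0.623 (0.649 and 0.597) and 0.675 (0.690 and 0.631). Over all libraries and within cohort 1 the mean of the red blood cell list had the lowest r of the 3 lists for both sums. Within cohort 2 its r lay above the microglial one for immunoglobulin. The corresponding r with immunoglobulin was 0.518 for endothelial and mural cells (Flt1, Vtn), 0.463 for meninges and fibroblasts (Igfbp2, Col1a2), 0.452 for macrophages and monocytes (Cd163, Cd68), 0.134 for neurons (Snap25, Map2), 0.113 for histaminergic neurons (Slc18a2, Maob) and 0.041 for choroid plexus (Clic6, Kcne2). Summed microglial levels were 318 to 638 in GFP, 300 to 820 in H3.3 and 284 to 552 in Q5A. The part of any of these cells in the immunoglobulin and MHC levels was not tested.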

How the data were processed

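RNA-seq of TMN tissue was analysed from tables of raw read counts per gene. As deposited by the authors, the counts had been made from reads called with bcl2fastq, aligned with STAR 2.7.11b to GRCm38 and counted with HTSeq 2.0.5 (strand-specific, union mode, exons summed by gene name, Ensembl annotation), while DESeq2 1.44.0 is listed as the authors' statistics tool. Rows that name no gene held 94.37% to 96.51% of uniquely placed reads and were left out. A pair of libraries that differed by 6 reads in 3 rows was merged. A further 18 files that match no labelled sample were not used.

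Groups came from the sample labels. Replicates are described as biological, and nothing ties same-numbered libraries to 1 animal. The 9 members and 16 gene lists were chosen with earlier results of these data known. Named genes are the members, list genes past a threshold, the 2 most abundant genes of each list and the 5 rows most correlated with each member sum, apart from list genes that are not reported here.

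The tests were edgeR 4.0.16 quasi-likelihood F tests (R 4.3.3, TMM scaling, filterByExpr with a minimum count of 10 and a minimum total of 15, prior count 2) with Benjamini-Hochberg adjustment over 13891 genes, and the procedure was tested on simulated data. Thresholds were 0.01 for level comparisons and 0.05 for 24 h cosine terms and their interaction with Q5A. The standard error is the size of the log2 change divided by the square root of F. For levels, each library was scaled by a size factor (the median of ratios over 9428 genes), correlations use log2 of the level + 1, and intervals are 95% Wilson intervals that cover counting error only. Alternatives were DESeq2 1.42.0, RLE scaling, no filter, left-out replicates and libraries, a replicate block, cohort 1 alone, cohort as a covariate, ZT as a factor, JTK_CYCLE (20 templates of 8 to 24 h), H3.3 as the sole control and CPM. Leaving out single libraries with high levels was decided after seeing the data.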

Additional observations from a re-analysis of the deposited data

Results flagged for a closer look

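Of 54 group-by-sum combinations, 22 (40.7%) had a highest library that stood apart from the rest by Dixon's 95% limit, where chance gives about 1 in 20 for normally distributed values. These sums are strongly skewed, so that rate is no yardstick for the count, and all 22 were the highest of their group. For the immunoglobulin sum these were GFP ZT4 cohort 1 replicate 4 (1185 normalised counts), H3.3 ZT0 cohort 1 replicate 2 (1142), H3.3 ZT16 cohort 2 replicate 1 (548.1), GFP ZT16 cohort 2 replicate 1 (197.1), Q5A ZT8 cohort 2 replicate 1 (108), Q5A ZT0 cohort 2 replicate 1 (17.85) and Q5A ZT4 cohort 3 replicate 1 (16.28). For the MHC class I sum they were H3.3 ZT0 cohort 1 replicate 2 (320.4), GFP ZT12 cohort 2 replicate 1 (308.6), H3.3 ZT16 cohort 2 replicate 1 (269.3), GFP ZT4 cohort 1 replicate 4 (238.4), GFP ZT8 cohort 1 replicate 2 (90.66) and H3.3 ZT4 cohort 1 replicate 4 (67.48). For the MHC class II sum they were H3.3 ZT0 cohort 1 replicate 2 (80.9), GFP ZT12 cohort 2 replicate 1 (51.26), GFP ZT4 cohort 1 replicate 4 (38.26), H3.3 ZT16 cohort 2 replicate 1 (35.61), Q5A ZT16 cohort 1 replicate 1 (31.15), Q5A ZT0 cohort 2 replicate 2 (25.61), H3.3 ZT8 cohort 3 replicate 1 (15.91), GFP ZT8 cohort 1 replicate 2 (9.444) and H3.3 ZT4 cohort 1 replicate 4 (5.093). H3.3 ZT0 cohort 1 replicate 2, GFP ZT4 cohort 1 replicate 4 and H3.3 ZT16 cohort 2 replicate 1 stood apart in each of the 3 sums.

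The 24 h pattern differed between Q5A and controls by an interaction test for Ighg2b (edgeR adjusted p = 0.005111), Igkc (0.02211) and Ighg2c (0.03372), rows that were selected with this result known.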

How the results depend on the processing

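No member was called between H3.3 and GFP or between Q5A and controls under any alternative. With all genes counted, H3.3 minus GFP called 0 genes, 7 with a replicate block, 10 in cohort 1 alone, 11 with cohort as a covariate and 0 in each fit that left out replicates or libraries. Q5A minus controls called 5 genes, 2 against H3.3 alone, 2 with DESeq2, 15 with the block, 37 in cohort 1 alone, 18 with cohort as a covariate and 0 to 6 with replicates or libraries left out. The comparison of cohorts 2 and 3 minus cohort 1 called 713, 381 with the block, 284 with cohort 2 alone and 413 to 760 with libraries left out. Its 1 member, H2-D1, was lost with the block (0 members; adjusted p = 0.0248), without replicate 1 (0.0117), without replicate 3 (0.0170) and without GFP ZT12 cohort 2 replicate 1, so that libraries left out gave 0 to 1, while no filter and leaving out both libraries of highest immunoglobulin gave 3, B2m and Cd74 with it.

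The test for change over ZT called 1267 genes, 28 in Q5A alone, 410 by JTK_CYCLE in controls, 1 by JTK_CYCLE in Q5A and 299 to 1314 with libraries left out. Its 2 members became 7 without both libraries of highest immunoglobulin, 1 with ZT as a factor, 0 and 0 by JTK_CYCLE, and 1 to 4 with replicates or libraries left out, 4 without GFP ZT4 cohort 1 replicate 4. The difference in 24 h rhythm, Q5A against controls, called 17 genes, 10 with DESeq2, 98 without the filter, 6 with the block, 778 in cohort 1 alone and 2 to 22 with libraries left out. Its 3 members became 0 without both libraries, 1 with ZT as a factor and 0 to 3 with replicates or libraries left out. The cause of these shifts was not tested.

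Signs of uncalled immunoglobulin differences were unstable. H3.3 minus GFP turned positive for Ighg2b with the block (0.00531), in cohort 1 alone (0.1801) and with cohort as a covariate (0.07214). With replicates or libraries left out it ran from -0.8433 to 0.2996 for Ighg2b, -1.247 to 0.6541 for Ighg2c, -1.355 to 0.2256 for Igkc and -0.6239 to 0.0987 for Ighm. Between cohorts these ranges were -0.4729 to 0.1559 for Ighg2b, -0.197 to 0.6517 for Ighg2c and -0.3126 to 0.3153 for Igkc. Without both libraries of highest immunoglobulin the cohort difference was 0.166 for Ighg2b and 0.4583 for Igkc, and with cohort 2 alone 0.01109 for Igkc. B2m was 0.02821 higher in Q5A against H3.3 alone. By CPM the 9 highest libraries held 29.8% of the class I sum in place of 28.5%.

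Replicate numbers carry no stated pairing: the 616 same-numbered pairs of libraries had a mean correlation of -0.000454 in their deviations from the group means, against 0.000696 for 2255 other pairs, so the block is given as a check. With it the adjusted p of the rhythm difference was 0.0258 for Ighg2b, Ighg2c and Igkc alike, and Igkc joined the members called over ZT (0.0268). Depth limits the immunoglobulin and class II rows most, since their medians correspond to 0 to 4.5 reads per library.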
